A study of Homo sapiens with 12 samples.

Results

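F-box genes encode the subunits that bring substrates to SCF ubiquitin ligases. The genes described here are the protein-coding genes whose GENCODE symbol starts with FBXL, FBXO or FBXW followed by a digit. By this rule 63 of the 60609 genes in the count files were F-box genes, made up of 17 FBXL, 36 FBXO and 10 FBXW genes. Their transcript levels were compared in K562 cells treated with the USP7 inhibitor FT671 or with its solvent DMSO. K562 is an established human leukemia line that grew out of a myeloid blast crisis, and lacks working p53, a protein kept in check through USP7, and the labels name no engineered change in either group. The FT671 group was treated at 10 µM for 48 h and the DMSO group received solvent for the same time, with 3 RNA-seq libraries each. The other 6 samples of the series, histone ChIP-seq at 24 h, were not analysed here.

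In an SCF ligase the cullin CUL1 holds a RING protein, RBX1, at its end that recruits the ubiquitin-loaded enzyme, and SKP1 at its other end. SKP1 binds the F-box, a short domain near the start of many of these proteins, and the remainder of the F-box protein binds the substrate. FBXL proteins bind substrates through leucine-rich repeats, FBXW proteins through WD40 repeats, and FBXO proteins through other domains. USP7 is a deubiquitinase that removes ubiquitin from its own substrates, among them ubiquitin ligases. In leukemia the family is best known for FBXW7, which marks MYC, cyclin E and NOTCH1 for degradation, and for SKP2, which marks the cell cycle inhibitor p27.

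The libraries held 14250500, 10969971 and 5320245 counts for DMSO and 4555220, 5605776 and 11437804 counts for FT671, so that 3 counts stood for 0.211 to 0.659 CPM (counts scaled to the size of each library). DMSO library 3 stood somewhat apart from DMSO libraries 1 and 2, at a root mean square log2 distance over genes of 0.387 and 0.405 against 0.246 between those 2, and FT671 libraries lay 0.324 to 0.402 apart. DMSO library 3 also had the lowest count total in DMSO, and the part of depth in these distances was not tested. Of 9 K562 markers 8 were tested, and of these the embryonic and fetal globins HBG1, HBG2 and HBZ rose and 5 fell, among them GATA1, TAL1, KLF1 and TFRC, while HBE1 was below the filter. Their summed level was 1249 to 1287 CPM in DMSO and 1117 to 1154 CPM in FT671. Of 8 markers of T, B, fibroblast and epithelial cells, MS4A1 was at 0 counts in every library, CD3E and CDH1 had at most 4 counts in any library, and EPCAM and CD3D rose, with a summed level of 84.0 to 84.8 CPM in DMSO and 114 to 118 CPM in FT671. The part of these shifts in the F-box results was not tested. USP7 itself measured 118, 107 and 131 CPM in the DMSO libraries and 29.2, 34.0 and 35.7 CPM in the FT671 libraries, a 3.54-fold fall (log2 fold change −1.82, SE 0.10, adjusted p = 2.65e-08). In libraries made from bulk RNA, fewer cells expressing a gene and less RNA per cell cannot be told apart.

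For 5 of these genes the promoter sequences are printed, to show what lies upstream of the genes that the results turn on. FBXO21, FBXO46 and FBXL19 were lower in FT671 at an adjusted p below 1e-05. FBXO6 and FBXO17 belonged to a group of 5 related genes that were all higher, a group chosen after the values were seen. Each run is the 250 bases before the RefSeq start site, from the RefSeq promoter table (GRCh38.p14), written 5′ to 3′ on the strand of the gene. For FBXO46 the RefSeq start site at 45733177 lies upstream of the GENCODE gene, which ends at 45730896, and for FBXL19 the site at 30922851 lies upstream of the GENCODE gene, which starts at 30923055. Capitals mark matches to the GC box GGGCGG or to CCAAT on either strand.
FBXO21 (chr12:117190471-117190720, minus strand): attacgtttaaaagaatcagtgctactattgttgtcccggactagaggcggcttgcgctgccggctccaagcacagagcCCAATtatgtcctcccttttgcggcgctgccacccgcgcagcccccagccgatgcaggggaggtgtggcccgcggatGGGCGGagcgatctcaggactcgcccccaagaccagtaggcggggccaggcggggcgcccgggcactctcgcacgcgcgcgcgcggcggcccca
FBXO46 (chr19:45733178-45733427, minus strand): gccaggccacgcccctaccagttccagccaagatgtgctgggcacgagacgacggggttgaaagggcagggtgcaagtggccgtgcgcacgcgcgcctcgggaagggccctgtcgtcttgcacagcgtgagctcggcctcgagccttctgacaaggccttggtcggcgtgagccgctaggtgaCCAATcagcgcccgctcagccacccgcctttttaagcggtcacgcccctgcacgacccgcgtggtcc
FBXL19 (chr16:30922601-30922850, plus strand): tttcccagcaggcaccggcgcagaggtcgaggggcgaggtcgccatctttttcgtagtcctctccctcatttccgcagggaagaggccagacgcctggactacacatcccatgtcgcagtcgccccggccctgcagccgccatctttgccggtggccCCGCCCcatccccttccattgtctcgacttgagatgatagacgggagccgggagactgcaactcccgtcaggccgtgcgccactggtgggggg
FBXO6 (chr1:11663950-11664199, plus strand): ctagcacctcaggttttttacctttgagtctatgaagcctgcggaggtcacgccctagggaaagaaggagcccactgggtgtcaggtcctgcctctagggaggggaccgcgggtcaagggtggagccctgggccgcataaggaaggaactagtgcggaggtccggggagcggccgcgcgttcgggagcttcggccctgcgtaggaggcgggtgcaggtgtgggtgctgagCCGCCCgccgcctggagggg
FBXO17 (chr19:38975743-38975992, minus strand): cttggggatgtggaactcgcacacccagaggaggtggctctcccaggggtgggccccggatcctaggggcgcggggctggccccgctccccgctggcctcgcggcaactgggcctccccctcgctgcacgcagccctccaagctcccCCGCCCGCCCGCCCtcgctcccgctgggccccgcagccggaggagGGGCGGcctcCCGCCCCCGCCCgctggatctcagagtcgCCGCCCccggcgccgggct

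FBXO21 held a CCAAT and a GC box, FBXO46 a CCAAT, FBXL19 and FBXO6 a GC box each, and FBXO17 held 7 GC boxes, some of them overlapping. The table gave a promoter for 49 of the 63 F-box genes. A GC box was present in 32 of these 49 promoters (65.3%) and in 42.6% of all 35116 promoters in the table. No limit to protein-coding genes was set for the values over all promoters, while each F-box gene counted with a single promoter. Among F-box genes lower in FT671 it was present in 10 of 18, and among those higher in 5 of 6. CCAAT was present in 13 promoters (26.5%, against 32.0% of all), of which 5 belonged to the 18 lower and 0 to the 6 higher genes. The ETS motif CCGGAAG was present in 8 promoters (16.3%, against 8.52% of all), of which 5 belonged to lower genes (FBXO28, FBXO11, FBXO38, FBXO5 and FBXL12) and 0 to higher genes. The remaining motifs, also searched on both strands, were TATAAA in 3 promoters (6.12%, against 10.7% of all), CACGTG in 4 (8.16%, against 6.35%), the NRF1 core motif in 3 (6.12%, against 1.03%) and TGACGTCA in 2 (4.08%, against 1.65%). The median ratio of observed to expected CpG was 0.858 for the lower, 0.717 for the higher and 0.846 for the uncalled F-box genes, 0.511 for those too low to test, and 0.558 over all promoters. These motif matches describe the letters only.

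More F-box transcripts fell than rose after 48 h of FT671. Of the 63 genes, 51 had enough counts to be tested, and 21 of the 51 (41.2%) were lower and 9 (17.6%) higher at an adjusted p below 0.05 by edgeR's quasi-likelihood test. Over all 13895 genes tested, 26.5% were lower and 23.6% were higher at this threshold. In a fit of protein-coding genes alone, 29.1% of 11149 genes were lower and 25.9% higher, with 41.2% and 17.6% of the F-box genes. On the log2 scale the median change was −0.25 over the tested F-box genes and −0.010 over all genes tested. The medians of the individual FT671 libraries, as deviations from the DMSO mean, were −0.066, −0.22 and −0.18, so FT671 library 1 lay closest to DMSO. The study's methods used an adjusted p below 1e-05 from DESeq2. At this value edgeR's test gave FBXL19, FBXO46 and FBXO21 as lower and none of the 51 as higher (9 were higher at an unadjusted p below 0.05). By the same test 4.13% of all genes tested were lower and 1.79% higher. DESeq2's Wald test gave 7 F-box genes as lower and 1 as higher at 1e-05. In 21 F-box genes every FT671 library lay below every DMSO library, and in 12 every FT671 library lay above, where 30.3% and 26.8% of all genes tested were so separated. After a correction for gene length the split was 16 lower (31.4%) and 13 higher (25.5%), against 23.9% and 27.6% of all genes tested under the same correction, and the medians were −0.119 and 0.042.

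**Figure D1:**
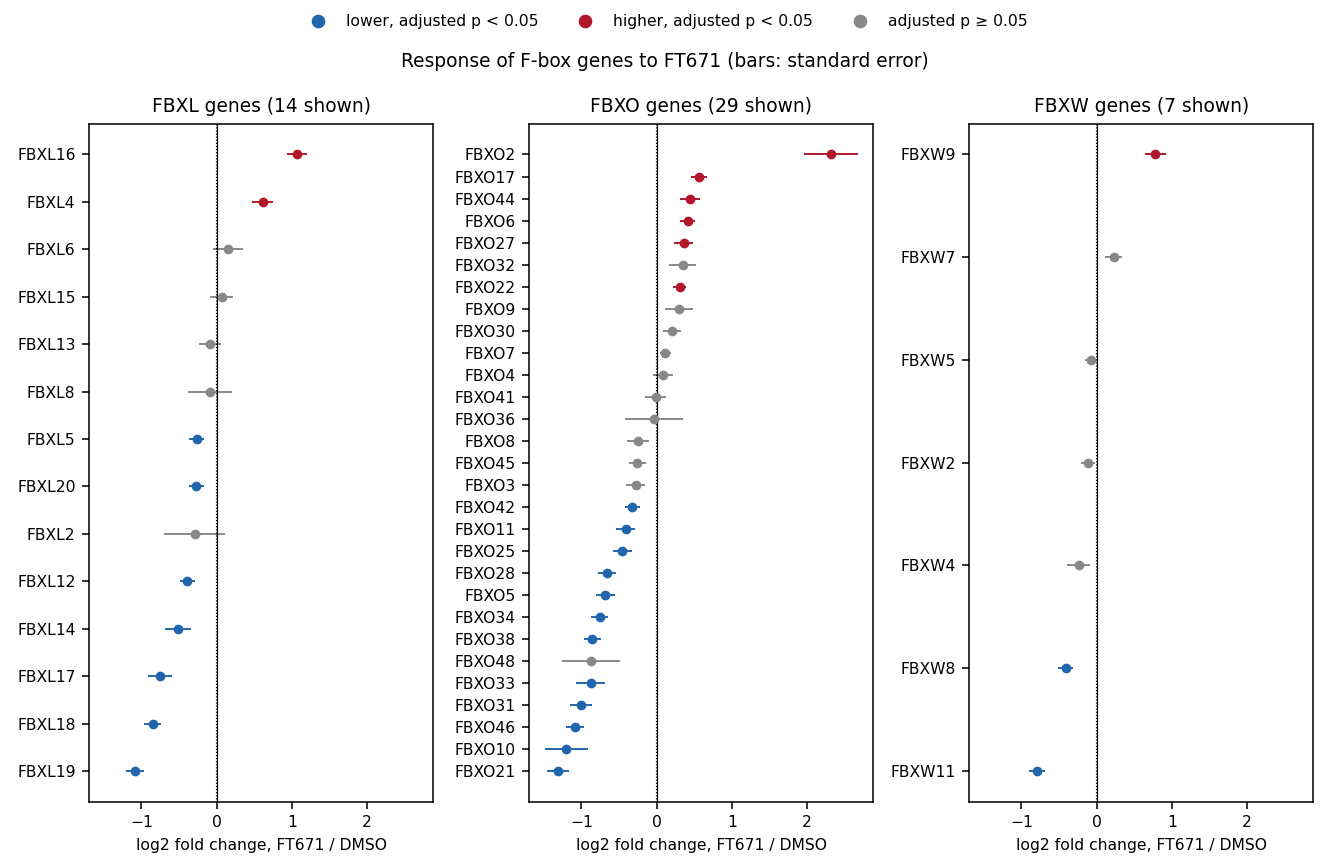
Log2 fold change of FT671 over DMSO for 50 of the 51 tested F-box genes (points, with the standard error as a bar), split into FBXL, FBXO and FBXW genes, with genes lower and higher at an adjusted p below 0.05 in blue and red and the others in grey. The points run from −1.31 for FBXO21 to 2.31 for FBXO2, and each subfamily holds genes on both sides of 0.

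The 3 subfamilies each held genes that fell and genes that rose. Of 15 FBXL genes tested 7 were lower and 2 higher, of 29 FBXO genes 12 were lower and 6 higher, and of 7 FBXW genes 2 were lower and 1 higher, where 26.5% of all genes tested were lower and 23.6% higher. The median log2 fold changes were −0.27 for FBXL, −0.25 for FBXO and −0.11 for FBXW genes, and the difference between subfamilies was not tested. The lower FBXL genes numbered 4 without DMSO library 1 or FT671 library 2 or 3, the higher FBXO genes 3 without FT671 library 3, and the medians were −0.136 for FBXL genes without FT671 library 1, −0.174 without DMSO library 3, and −0.0691 for FBXW genes without FT671 library 3. With length correction the medians were −0.107 for FBXL and −0.142 for FBXO genes, and 2 FBXW genes were higher.

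Of the FBXL genes, FBXL19 changed most clearly. FBXL19 (ENSG00000099364, chr16:30923055-30948783 on hg38, plus strand) encodes an F-box protein with a CXXC zinc finger, the domain that binds unmethylated CpG islands. It measured 43.2, 41.8 and 37.2 CPM in the 3 DMSO libraries and 18.6, 17.3 and 21.3 CPM in the 3 FT671 libraries. Each FT671 library lay below each DMSO library, a 2.12-fold fall (log2 fold change −1.09, SE 0.12, adjusted p = 4.66e-06). KDM2A and KDM2B, H3K36 demethylases whose symbols lack FBX, carry both a CXXC zinc finger and an F-box, and KDM2B is the subunit that brings PRC1.1 to CpG islands. KDM2A measured 80.6, 85.7 and 82.7 CPM in DMSO and 56.5, 53.2 and 52.7 CPM in FT671. KDM2B measured 78.9, 85.0 and 79.4 CPM in DMSO and 55.6, 44.4 and 45.4 CPM in FT671. All 3 CXXC F-box genes therefore fell, where 26.5% of all genes tested were lower at an adjusted p below 0.05. The log2 fold changes were −0.62 (SE 0.082, adjusted p = 3.09e-05) for KDM2A and −0.75 (SE 0.10, adjusted p = 2.63e-05) for KDM2B. This grouping, like the 2 groupings by domain or paralogy further on, was chosen after the values were seen.

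FBXL18 (chr7:5431335-5513809, minus strand) measured 32.3, 33.0 and 31.5 CPM in DMSO and 19.3, 19.2 and 16.2 CPM in FT671, without overlap, a 1.80-fold fall (adjusted p = 3.19e-05). Of its exon length 33.3% overlaps the antisense lncRNA ENSG00000230733, whose own log2 fold change was −1.42, and the strand setting of the counting is not given in the sources used here. FBXL17, which removes wrongly paired BTB proteins, measured 12.4, 13.1 and 15.5 CPM in DMSO and 8.41, 9.35 and 6.86 CPM in FT671, a 1.68-fold fall (adjusted p = 0.00178). FBXL14, which marks the transcription factor SNAI1, measured 16.4, 16.6 and 12.7 CPM in DMSO and 14.2, 10.8 and 9.09 CPM in FT671. Its groups overlapped, since FT671 library 1 lay above DMSO library 3, and the log2 fold change of −0.51 (adjusted p = 0.0235) no longer passed 0.05 without DMSO library 1 (0.0865), DMSO library 2 (0.0836), FT671 library 2 (0.066) or FT671 library 3 (0.189, with a log2 fold change of −0.32), nor with DESeq2's Wald test (0.0594) or after thinning all libraries to the smallest total (0.124). FBXL5, the iron-sensing receptor for IREB2, measured 38.4, 39.9 and 40.2 CPM in DMSO and 31.7, 32.2 and 34.1 CPM in FT671. These groups did not overlap but the change was small, 1.20-fold lower (adjusted p = 0.0326), and passed 0.05 only with DMSO library 3 left out among the 6 fits that each left out a library (0.0577 to 0.102 in the other 5). It did not pass with DESeq2's Wald test (0.102) or with length correction (0.0858). FBXL12 (−0.39, adjusted p = 0.00625) and FBXL20 (−0.27, adjusted p = 0.0384) were the other FBXL genes that fell. The call of FBXL12 was lost without FT671 library 3 (adjusted p = 0.055), and that of FBXL20 without DMSO library 1 (0.0836) or FT671 library 1 (0.13) or 2 (0.155). FBXL20 also lost its call with DESeq2's Wald test (0.0717), after thinning (0.0839) and with length correction, where its log2 fold change was −0.11 (0.335).

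FBXL16 and FBXL4 were the FBXL genes that rose. FBXL16 (chr16:692498-705801, minus strand) measured 8.49, 9.68 and 9.03 CPM in DMSO and 21.3, 19.1 and 17.5 CPM in FT671, so that the lowest FT671 library lay well above the highest DMSO library (2.10-fold, log2 fold change 1.07, SE 0.14, adjusted p = 2.53e-05). FBXL4, a mitochondrial F-box protein that restrains mitophagy, measured 15.9, 16.8 and 21.4 CPM in DMSO and 23.9, 25.5 and 30.1 CPM in FT671, 1.53-fold higher (adjusted p = 0.00194). FBXL6 did not pass the test (adjusted p = 0.565), with 22.8, 22.1 and 10.7 CPM in DMSO and 24.6, 21.4 and 19.6 CPM in FT671, where DMSO library 3 alone was low.

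The FBXO genes held the largest fall, that of FBXO21. The largest fitted rise was that of FBXO2, which was tested only because of its FT671 level. The next largest rise was that of the FBXL gene FBXL16 (log2 fold change 1.07). FBXO21 (ENSG00000135108, chr12:117141991-117190470, minus strand), part of the ligase for the differentiation inhibitor EID1, measured 16.7, 17.2 and 14.9 CPM in DMSO and 7.31, 5.75 and 6.77 CPM in FT671. Each FT671 library was under the lowest DMSO library, a 2.48-fold fall (log2 fold change −1.31, SE 0.15, adjusted p = 8.72e-06). FBXO46 (ENSG00000177051, chr19:45710629-45730896, minus strand) measured 52.1, 52.5 and 45.7 CPM in DMSO and 27.9, 20.7 and 23.1 CPM in FT671, a 2.13-fold fall (log2 fold change −1.09, SE 0.12, adjusted p = 5.4e-06). Without DMSO library 3 the number of F-box genes lower at 1e-05 went from 3 to 9, and without any other single library it was 0.

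FBXO10, which marks the survival protein BCL2, measured 4.42, 3.83 and 6.82 CPM in DMSO and 2.44, 1.62 and 2.14 CPM in FT671. The level was low, with 11, 9 and 24 counts in the FT671 libraries, and the 2.30-fold fall had a wide error (log2 fold change −1.20, SE 0.29, adjusted p = 0.00318). Of its exon length 47.7% is shared on the same strand with ENSG00000256966, which had 0 counts. FBXO31, which marks cyclin D1 after DNA damage, measured 30.6, 30.6 and 22.5 CPM in DMSO and 12.4, 15.1 and 14.5 CPM in FT671, 2.01-fold lower (adjusted p = 5.13e-05). FBXO38, known as the receptor for PD-1 in T cells and for a place among the partners of USP7, measured 41.9, 37.6 and 42.2 CPM in DMSO and 22.1, 19.1 and 25.1 CPM in FT671. The groups were clearly apart, a 1.81-fold fall (log2 fold change −0.85, SE 0.12, adjusted p = 4.75e-05). FBXO5, better known as EMI1, inhibits the anaphase-promoting complex until mitosis, and measured 29.1, 28.3 and 33.3 CPM in DMSO and 15.5, 20.3 and 19.6 CPM in FT671, 1.60-fold lower (adjusted p = 0.000447). FBXO11, the receptor for BCL6, measured 33.0, 32.5 and 44.0 CPM in DMSO and 27.7, 26.1 and 27.2 CPM in FT671. DMSO library 3 was the high one here, and the 1.33-fold fall (adjusted p = 0.0142) had an adjusted p of 0.0523 without FT671 library 2 and also without FT671 library 3. With length correction its log2 fold change went from −0.41 to −0.25 (adjusted p = 0.0742). Exons of the antisense neighbor MSH6 cover 31.5% of the exon length of FBXO11, and MSH6 did not pass the test (log2 fold change −0.13).

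Another 5 FBXO genes fell, namely FBXO33 (−0.88 on the log2 scale), FBXO34 (−0.76), FBXO28 (−0.66), FBXO25 (−0.45) and FBXO42 (−0.32), with adjusted p from 0.000124 for FBXO34 to 0.0148 for FBXO42. Every FT671 library lay below every DMSO library in each of these 5, which were named because they were called lower. Of all genes tested, 30.3% were so separated. The calls of FBXO25 (adjusted p = 0.052 without DMSO library 1) and FBXO42 (0.0588 to 0.0801 without DMSO library 2 or FT671 library 1 or 2) were lost without these libraries. Length correction ended both calls as well, with log2 fold changes of −0.30 for FBXO25 (adjusted p = 0.0643) and −0.19 for FBXO42 (0.133), and thinning ended that of FBXO33 (−0.60, adjusted p = 0.07).

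Of the 6 FBXO genes that rose, 5 make up a single structural family. FBXO2, FBXO6, FBXO17, FBXO27 and FBXO44 share the FBA domain, through which several of them bind sugar chains on misfolded glycoproteins brought back from the endoplasmic reticulum. In each of the 5 genes every FT671 library lay above every DMSO library, where 26.8% of all genes tested were so separated. The grouping of these 5 was chosen after the values were seen. Their summed level was 115, 123 and 96.5 CPM in DMSO and 157, 161 and 149.6 CPM in FT671. FBXO2 passed the filter on low counts through its FT671 libraries alone. FBXO6 (chr1:11664200-11674354, plus strand), the most abundant of them, measured 55.8, 59.7 and 46.4 CPM in DMSO and 76.6, 75.9 and 66.0 CPM in FT671, 1.33-fold higher (log2 fold change 0.41, SE 0.10, adjusted p = 0.00478). FBXO17 (chr19:38941401-38975742, minus strand) measured 26.7, 28.0 and 23.8 CPM in DMSO and 39.6, 39.4 and 38.2 CPM in FT671, 1.48-fold higher (adjusted p = 0.000442). These 2 genes rose in each setting tried. FBXO44 (chr1:11654375-11663327, plus strand) measured 18.1, 20.3 and 14.2 CPM in DMSO and 21.9, 25.0 and 25.2 CPM in FT671, 1.36-fold higher (adjusted p = 0.0139, and 0.0734 without FT671 library 3). FBXO27 (chr19:38990714-39032785, minus strand) measured 13.4, 13.8 and 12.0 CPM in DMSO and 16.8, 17.4 and 16.6 CPM in FT671, and its 1.28-fold rise was the least secure (adjusted p = 0.0278, below 0.05 without DMSO library 2 or 3, and from 0.0501 to 0.0801 without each of the other 4 libraries). FBXO27 also missed 0.05 with DESeq2's Wald test (0.0676), with no filter on low counts (0.12) and after thinning (0.0689).

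FBXO2 (chr1:11637018-11655785, minus strand), known for its high level in neurons, was nearly silent in DMSO. It had 11, 8 and 1 counts in the DMSO libraries and 11, 19 and 40 counts in the FT671 libraries, that is 0.759, 0.730 and 0.184 CPM against 2.44, 3.42 and 3.56 CPM. The fitted rise was the largest of all F-box genes (4.97-fold, log2 fold change 2.31, SE 0.36, adjusted p = 0.000122), although its FT671 level of 0.992 RPKM (CPM per kilobase of exon) was still far below the 42.0 RPKM of FBXO6. Its DMSO libraries alone would not have passed the filter on low counts, so FBXO2 was tested because of its FT671 level. NCCRP1, also known as FBXO50, carries the same domain and was below the filter with 2, 0 and 0 counts in DMSO and 4, 8 and 10 counts in FT671. The ratio of its summed counts, scaled to library totals, was 15.6 with an exact 95% interval of 3.82 to 137 that covers counting error only. The genes are close neighbors on the chromosome. FBXO2 and FBXO44 lie head to head with overlapping ends on chromosome 1 and RefSeq start sites 22 bases apart, FBXO6 begins 872 bases beyond FBXO44, and FBXO17 and FBXO27 lie 14971 bases apart on chromosome 19. The exons of FBXO2 and FBXO44 share 115 bases on opposite strands. Exons of the antisense gene MAD2L2 cover 50.5% of the exon length of FBXO6, and MAD2L2 did not pass the test (log2 fold change 0.22, adjusted p = 0.102).

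FBXO22, the receptor for the histone demethylase KDM4A, was the remaining FBXO gene that rose (0.31 on the log2 scale, adjusted p = 0.00839, and 0.0529 without FT671 library 3, with 0.47 on the log2 scale after length correction). FBXO7, which is linked to an early-onset form of Parkinson disease and is abundant in red cell precursors, measured 159, 156 and 159 CPM in DMSO and 169, 166 and 179 CPM in FT671. All FT671 libraries lay above all DMSO libraries, but the 1.08-fold difference did not pass the test (adjusted p = 0.176) unless a gene length correction was made (0.00576). Among uncalled FBXO genes the log2 fold change ran from −0.87 for FBXO48, which had 8, 4 and 8 counts in the FT671 libraries (adjusted p = 0.0712), to 0.35 for FBXO32, the muscle atrophy ligase atrogin-1 (adjusted p = 0.125).

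Of the FBXW genes, FBXW11 fell most. FBXW11 (ENSG00000072803, chr5:171861549-172006873, minus strand) encodes β-TrCP2, which binds phosphorylated β-catenin, IκBα, CDC25A and WEE1. It measured 52.8, 49.8 and 54.7 CPM in DMSO and 25.2, 30.4 and 33.5 CPM in FT671, a 1.73-fold fall (log2 fold change −0.79, SE 0.11, adjusted p = 5.13e-05). Its paralog BTRC (β-TrCP1, chr10:101354033-101557321, plus strand) measured 33.2, 30.8 and 37.8 CPM in DMSO and 13.5, 14.4 and 16.8 CPM in FT671, 2.21-fold lower (adjusted p = 6.23e-06). The summed level of both β-TrCP genes went from 86.0, 80.5 and 92.5 CPM in DMSO to 38.7, 44.8 and 50.3 CPM in FT671. FBXW8, the F-box protein of CUL7 ligases, measured 37.1, 37.4 and 37.2 CPM in DMSO and 29.2, 27.2 and 27.7 CPM in FT671, a smaller fall (1.33-fold, adjusted p = 0.00297) but with little spread between libraries. FBXW9 was the FBXW gene that rose, from 8.42, 7.58 and 7.74 CPM in DMSO to 13.9, 14.0 and 13.3 CPM in FT671 (1.72-fold, adjusted p = 0.000427). FBXW7, the receptor for MYC, cyclin E and JUN, measured 21.9, 20.8 and 20.6 CPM in DMSO and 27.7, 25.0 and 22.6 CPM in FT671. The FT671 libraries lay above the DMSO libraries by a narrow margin, and the log2 fold change of 0.23 (SE 0.11, adjusted p = 0.114) did not pass 0.05 except under length correction (0.0131) or, together with the replicate number, under GC correction (0.0484). FBXW2, FBXW4 and FBXW5 did not pass the test, with log2 fold changes of −0.11, −0.24 and −0.071.

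Per exon length, FBXW5 was the most abundant F-box transcript in DMSO at 33.6 RPKM, followed by FBXO6 at 31.1, FBXO7 at 18.6, FBXO46 at 14.2 and FBXL12 at 11.9 RPKM. The median over the 51 tested genes was 4.58 RPKM and the lowest level was 0.176 RPKM for FBXO2. Of the 12 F-box genes below the filter, 11 were silent or nearly so. FBXL7, FBXO16, FBXO39, FBXO47 and FBXW10 were at 0 counts in every library, which allows a level of up to 0.211 to 0.659 CPM per library. For FBXO16, 51.7% of the exon length is shared on the same strand with ZNF395. FBXW12 and FBXO40 had 2 counts, FBXO43 had 4, FBXL22 had 3, FBXW10B had 1 and FBXO15 had 6 counts over the 6 libraries. FBXO24, the remaining one, had 31 counts in DMSO and 28 in FT671, and its 0.315 RPKM in DMSO lay above the level of FBXO2. Such intervals and limits cover counting error only.

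Several F-box proteins carry symbols outside the FBX series, and 8 of 11 on a list of them were tested, of which 5 fell and 1 rose. Over all genes tested 26.5% fell and 23.6% rose. CCNF, or cyclin F, which marks RRM2 and other replication proteins, measured 88.0, 83.4 and 92.7 CPM in DMSO and 30.8, 37.2 and 30.1 CPM in FT671, a 2.70-fold fall (log2 fold change −1.43, SE 0.10, adjusted p = 1.37e-07). The DNA helicase FBH1 went from 135, 136 and 138 CPM in DMSO to 90.5, 93.5 and 99.7 CPM in FT671 (1.43-fold lower, adjusted p = 5.58e-05). KDM2A, KDM2B and BTRC, described above, were the other 3 that fell. SKP2, the receptor for p27, rose from 85.5, 83.5 and 93.6 CPM in DMSO to 109, 120.3 and 115 CPM in FT671 (1.31-fold, adjusted p = 0.000952). LMO7 (log2 fold change 0.35, adjusted p = 0.146) and TSPAN17 (−0.18, adjusted p = 0.181) did not pass the test, ECT2L and NCCRP1 were below the filter, and the symbol LRRC29 was not matched.

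The shared parts of the ligase moved in different directions. CUL1, the scaffold of every SCF ligase, measured 118, 117 and 149.8 CPM in DMSO and 52.5, 62.6 and 55.5 CPM in FT671, a 2.24-fold fall (log2 fold change −1.16, SE 0.11, adjusted p = 1.23e-06). SKP1, the adaptor that binds the F-box, rose from 77.2, 80.3 and 77.9 CPM in DMSO to 116, 124 and 129.7 CPM in FT671 (1.57-fold, adjusted p = 1.11e-05). The groups of neither gene overlapped. RBX1, the RING subunit, measured 46.7, 43.0 and 41.8 CPM in DMSO and 46.3, 47.5 and 46.9 CPM in FT671 and did not pass the test (adjusted p = 0.427), while the related RNF7 rose 1.23-fold (adjusted p = 0.0113, 0.0543 without DMSO library 1, 0.059 with no filter and 0.138 after thinning). The COP9 signalosome, which removes NEDD8 from cullins, had 7 of its 10 genes higher and none lower at 0.05 (GPS1, COPS2, COPS6, COPS7A, COPS7B, COPS8 and COPS9), with a median log2 fold change of 0.37. Of all genes tested, 23.6% were higher and 26.5% lower, with a median of −0.010. The summed level of the COP9 genes was 689, 698 and 703 CPM in DMSO and 885, 849 and 857 CPM in FT671, and 6 to 8 of them were higher and 0 lower over the 19 settings run (0 lower at an unadjusted p below 0.05). COPS5, its catalytic subunit, did not pass the test (log2 fold change 0.17, adjusted p = 0.198).

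**Figure D2:**
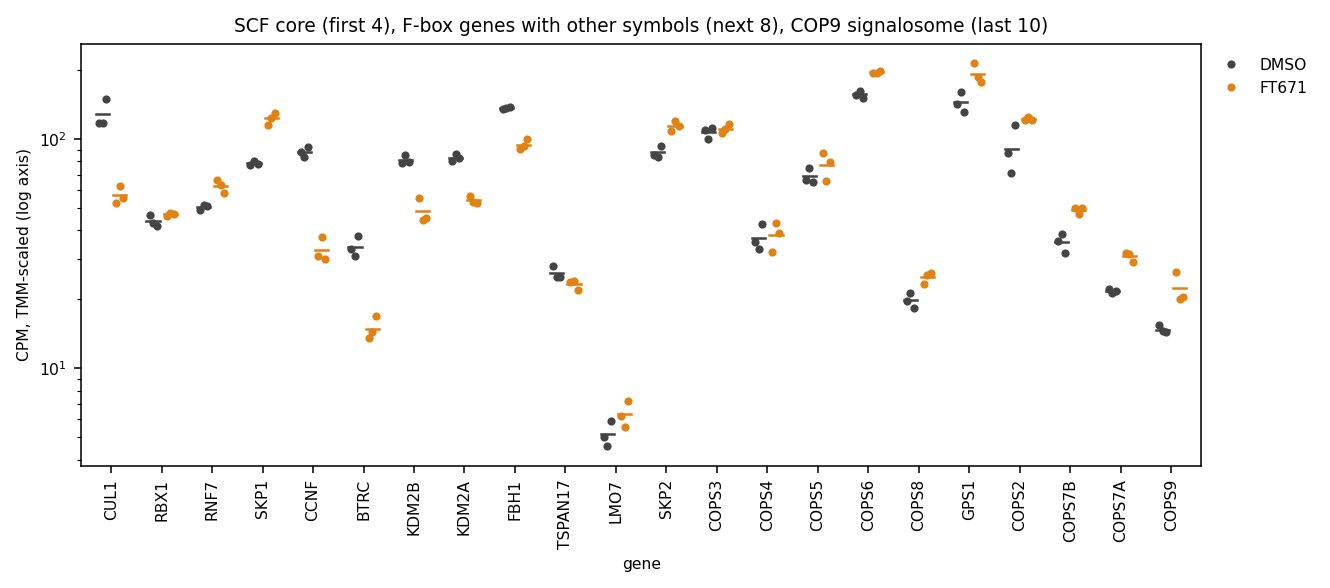
CPM (log axis) in each DMSO (grey) and FT671 (orange) library, with a line at each group mean of 3 libraries, for the 4 SCF core genes, the 8 tested F-box genes with other symbols and the 10 COP9 signalosome genes. CUL1, CCNF, BTRC, KDM2B, KDM2A and FBH1 are separated downward, and SKP1, RNF7, SKP2 and 7 COP9 genes upward.

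Of 19 genes for cullin neddylation and for the exchange of F-box proteins, 3 fell and 2 rose, against 26.5% and 23.6% of all genes tested. These counts were 4 and 6 without DMSO library 3, 2 and 2 without DMSO library 1 or FT671 library 2 or 3, 4 and 4 with GC or length correction, and 5 and 3 with no filter. DCUN1D3, a helper of neddylation, went from 7.32, 6.94 and 9.21 CPM in DMSO to 1.77, 2.34 and 3.56 CPM in FT671 (2.72-fold lower, adjusted p = 0.000246). CKS2 (−0.61 on the log2 scale) and CAND2 (−0.37) also fell, and DCUN1D5 (0.58) and NEDD8 (0.41) rose. CAND1, the main exchange factor of F-box proteins, did not pass the test (0.16, adjusted p = 0.268).

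A list of 18 genes for known SCF substrates gives the transcripts on the other side of the ligase. Of these, 9 fell and 2 rose, with a median log2 fold change of −0.31. Over all genes tested 26.5% fell and 23.6% rose, with a median of −0.010. Across the 19 settings run, 8 to 11 of the substrate genes fell and 2 to 3 rose. The β-TrCP substrates CTNNB1 (−0.81 on the log2 scale, adjusted p = 8.25e-07), CDC25A (−0.84, adjusted p = 1.96e-06) and WEE1 (−0.91, adjusted p = 8.99e-07) fell, and NFKBIA did not pass the test (−0.040, adjusted p = 0.796). MYC, a substrate of FBXW7, measured 359, 373 and 339.6 CPM in DMSO and 234, 244 and 243 CPM in FT671 (1.49-fold lower, adjusted p = 1.22e-05), and CCNE1, MCL1, CDT1, CRY2 and IREB2 also fell. JUN, another FBXW7 substrate, rose from 296, 302 and 262 CPM in DMSO to 419.9, 424 and 404 CPM in FT671 (adjusted p = 4.09e-05). BCL6, the substrate of FBXO11, rose from 18.5, 20.5 and 21.0 CPM in DMSO to 36.1, 38.1 and 40.0 CPM in FT671 (adjusted p = 7.18e-06). Of the genes for the clock proteins CRY1 and CRY2, CRY2 was 2.20-fold lower (adjusted p = 1.54e-05) and CRY1 did not pass the test (0.043, adjusted p = 0.81). These are transcript levels, and protein levels were not measured in these files.

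The F-box genes that fell had a longer median exon length and a lower median GC content than those that rose. The median exon length was 6020 bases for the 21 lower, 3527 bases for the 9 higher and 6185 bases for the 21 uncalled genes, and the median GC content of the exons was 45.5%, 58.9% and 42.8%. Over all genes tested the lower genes were likewise longer (5810 against 4147 bases), but were the more GC-rich (50.7% against 47.8%). These medians were not tested. Exons of another annotated gene overlapped those of 31 of the 51 tested F-box genes, mostly on the opposite strand, and reads of such pairs cannot be told apart where counting ignored strand.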

How the data were processed

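Per the study's methods, the authors depleted ribosomal RNA, sequenced paired ends, used two-pass STAR alignment to hg38 and took the read counts from it. The deposited values are these raw counts per gene. Tool versions, annotation release and strand setting are not given in the sources used here. The study describes independent experiments, while the labels do not mention separate cultures, so p-values measure the spread between these libraries, which may in part be technical.

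Gene identifiers were matched to GENCODE 44 (60295 of 60609; the other 314 held 0.0609% of counts), which gave symbols, exon lengths and hg38 positions. Counts were filtered with filterByExpr, scaled by TMM (factors 0.982 to 1.02), tested without covariate by edgeR's quasi-likelihood test (edgeR 4.0.16, R 4.3.3) and adjusted by Benjamini-Hochberg over all 13895 tested genes. Adjusted p is from that test unless another is named. The test was checked on simulated counts. CPM are TMM-scaled, with depth from 4555220 to 14250500 counts per library.

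Genes described one by one were all members below 1e-05, the 4 largest rises and falls per subfamily below 0.05 and averaging 1 CPM or more, 9 well-studied members, and genes of the pathway lists. One F-box gene and a cell marker are counted but not reported here by name. Members, lists and this rule were chosen with earlier results of these data known. Alternatives changed scaling (DESeq2 size factors, library totals), the test (DESeq2 1.42.0), the filter, the genes fitted, length and GC (loess, span 0.3), depth, the replicate block and the libraries.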

Additional observations from a re-analysis of the deposited data

How the results depend on the processing

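Of the 30 F-box genes called, 19 kept their call in each of the 18 alternatives run, and over 592 values of 33 F-box genes 543 kept direction and side of the threshold, 44 lost the call, 5 gained it (FBXO7 and FBXW7) and 0 changed sign. Of 10 other called genes (USP7 and those of the SCF core and of the F-box genes with other symbols) 9 kept their call in each alternative and RNF7 lost it in 3. Depth limits FBXO2, FBXO10, FBXL2, FBXL8, FBXO36 and FBXO48, which had under 10 counts in at least 1 library.

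The number of F-box genes lower at 1e-05 was 3, and became 7 with DESeq2's Wald test, 7 with GC correction, 5 with GC correction and the replicate block, 10 with no filter and 1 after thinning. The number higher at 1e-05 was 0, and became 1 with DESeq2's Wald test, 2 with GC correction, 1 with GC correction and the block, 1 with length correction, 1 with length correction and the block, and 2 with no filter. In the main fit 4.13% of all genes tested were lower and 1.79% higher at 1e-05, and these shares were not worked out for the alternatives. Length correction moved the median log2 fold change to −0.119 for all F-box genes, −0.107 for FBXL and −0.142 for FBXO genes, and with the block to −0.12, −0.12 and −0.16. It raised the higher F-box genes from 9 to 13 and, with the block, to 14, of which 10 were FBXO genes. These were 25.5% and 27.5% of the tested F-box genes, against 27.6% and 28.4% of all genes tested under the same settings. The higher FBXW genes became 2 with and without the block. GC correction with the block also gave 2 higher FBXW genes, and DESeq2's Wald test gave 4 lower FBXL genes. The cause of these changes was not tested.

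Leaving out each library in turn gave 16 to 22 lower and 6 to 9 higher F-box genes at 0.05, the 6 without FT671 library 3, and 0 to 9 lower and 0 to 1 higher at 1e-05, the 9 and the 1 without DMSO library 3. At 0.05 these were 30.8% to 42.3% and 12% to 18.4% of the tested F-box genes. In the same fits 21.4% to 27.5% of all genes tested were lower and 18.4% to 25.7% higher. Lower FBXL genes ran from 4 to 7, the 4 without DMSO library 1 or FT671 library 2 or 3. Higher FBXO genes ran from 3 to 6, the 3 without FT671 library 3, and lower FBXW genes from 2 to 3. The medians ran from −0.283 to −0.184 for all F-box genes, −0.276 to −0.136 for FBXL and −0.33 to −0.211 for FBXO genes, the −0.136 without FT671 library 1, and −0.158 to −0.0691 for FBXW genes.

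Both groups carry replicate numbers 1 to 3. The study describes 3 independent experiments in which cells received DMSO or FT671, while the labels do not say that equal numbers mark the same experiment. Deviations from the group means correlated across genes at r = 0.115, −0.0605 and 0.14 between libraries of the same number. DMSO library 2 correlated best with FT671 library 1 (0.125). These weak correlations cannot decide whether the numbers mark pairs, and the main fit used no pairing. With the replicate block alone 23 F-box genes were lower and 9 higher at 0.05, 3 and 0 at 1e-05, and the median was −0.236. At 0.05 these were 45.1% and 17.6% of the tested F-box genes, against 27.1% and 24.3% of all genes tested with the block. Of the 19 neddylation and exchange genes, 5 fell and 2 rose with the block, and 3 and 5 with the block and length correction.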

Other observations

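Substrate receptors of the other cullins held fewer tested genes. Of 37 KLHL genes, receptors of CUL3 ligases, 21 were tested, 8 fell and 3 rose, with a median log2 fold change of −0.26. Of 19 DCAF genes, receptors of CUL4 ligases, 14 were tested, 6 fell and 2 rose (median −0.22), and of 18 ASB genes, receptors of CUL5 ligases, 7 were tested, 3 fell and 1 rose (median −0.39). Over all genes tested 26.5% fell and 23.6% rose. Whether these families differ from the F-box genes was not tested.

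KLHL4 had the lowest log2 fold change of these receptors. It had 107, 88 and 46 counts in the DMSO libraries and 2, 2 and 4 counts in the FT671 libraries, that is 7.39, 8.03 and 8.48 CPM against 0.443, 0.360 and 0.356 CPM (adjusted p = 1.35e-07 by edgeR's quasi-likelihood test). KLHL4 passed the filter on low counts through its DMSO libraries alone. KLHL36 went from 106, 106 and 108 CPM in DMSO to 47.4, 47.3 and 50.0 CPM in FT671, a 2.21-fold fall (adjusted p = 1.18e-07 by the same test). ASB13 went from 16.8, 15.6 and 16.2 CPM in DMSO to 7.53, 5.93 and 5.88 CPM in FT671, 2.57-fold lower (adjusted p = 6.83e-06). KLHL17 rose from 9.52, 8.67 and 6.63 CPM in DMSO to 28.3, 18.3 and 24.3 CPM in FT671, 2.75-fold (adjusted p = 1.05e-05), and DCAF17 and DCAF16 rose by 0.72 and 0.57 on the log2 scale. The groups of these 6 genes, which were named because they were called, did not overlap. Over all genes tested every FT671 library lay lower in 30.3% and higher in 26.8%.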
